A study of Mus musculus with 2 samples.

Results

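The insulin-like growth factor system of the heart was described through 10 genes, chosen by symbol from the names carried in the transcript tables: the ligands Igf1 and Igf2, the noncoding RNA H19, the receptors Igf1r, Insr and Igf2r, the adaptors Irs1 and Irs2, and the binding proteins Igfbp3 and Igfbp5. All 10 were found among 55536 annotated genes. The tissue was the heart of female B6CASTF1/J mice aged 14 days, first-generation hybrids of C57BL/6J and CAST/EiJ parents, with no treatment named in the labels. Total RNA was sequenced in 1 group of 2 libraries, each from 300 ng of RNA with ERCC spike-ins, so every value is a description and no test between groups was possible. Both libraries carry the same donor entry. The tissue entry of replicate 1 names 3 females and that of replicate 2 names 1 animal, while the shared description names 3 females, so the spread between the libraries may be technical in part and separate animals cannot be told apart from separate preparations.

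Insulin-like growth factors are secreted peptides related to insulin that drive growth before and after birth. IGF1 and IGF2 act through the tyrosine kinase receptor IGF1R and through the insulin receptor, which pass the signal to the adaptors IRS1 and IRS2, then to phosphoinositide 3-kinase and AKT. IGF2R takes IGF2 up for degradation, and the binding proteins carry the ligands and limit their access to receptors. Igf2 and H19 are imprinted neighbours: Igf2 is transcribed from the paternal and H19 from the maternal chromosome, and Igf2r is imprinted in the mouse as well. Alleles were not analysed here.

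The sequences that the transcript results below turn on are shown first. Igf2 is transcribed from several promoters that place different first exons, in most cases untranslated, before shared coding exons. The annotation gives Igf2-205 573 coding bases, against 540 in Igf2-201, Igf2-202, Igf2-203 and Igf2-204. RefSeq lists 4 start sites for it on the minus strand of chromosome 7, at positions 142666816, 142661271, 142658804 and 142657496 (GRCm38.p6), numbered here from 1, the outermost, to 4, the innermost, which lie 0, 5545, 8012 and 9320 bases from the outermost. The 100 bases before the transcripts of starts 1, 2 and 4 are given 5′ to 3′ with GGGCGG, a motif of GC-rich promoters, in capitals where it occurs on either strand. They are chr7:142666817-142666916, chr7:142661306-142661405 and chr7:142657497-142657596.
Igf2 start 1: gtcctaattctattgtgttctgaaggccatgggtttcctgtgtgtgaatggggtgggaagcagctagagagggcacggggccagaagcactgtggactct
Igf2 start 2: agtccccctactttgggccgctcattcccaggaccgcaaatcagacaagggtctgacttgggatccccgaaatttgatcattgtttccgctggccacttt
Igf2 start 4: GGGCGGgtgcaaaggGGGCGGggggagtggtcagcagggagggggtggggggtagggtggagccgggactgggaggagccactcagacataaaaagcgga

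In the 300-base windows of the RefSeq table around the 4 starts, GGGCGG occurred 0, 0, 1 and 2 times from start 1 to start 4, counting both strands. Of 32851 such windows over all genes, 35.7% held the motif at least once. TATAAA, searched on both strands in the same way, occurred in none of the 4 windows and in 13.6% of all windows. The GC content of the 4 windows was 52.3%, 49.7%, 64.7% and 63.3%, against a median of 52.7% over all windows. The RefSeq position of start 3 lies inside the first exon of Igf2-205, which begins at 142659489. The bases before that transcript lie outside the window and are not shown. These matches describe the letters only. Of the 10 genes, 8 had entries in that table.

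A short coding exon separates the main Igf1 transcript from the transcripts whose precursor ends in a different E peptide. It is the 52-base exon at chr10:87915298-87915349 (mm10, plus strand), shown in capitals with 15 bases of the transcript on either side. In Insr, a 36-base coding exon at chr8:3181702-3181737 (minus strand) separates isoform B of the receptor, which holds it, from isoform A, which lacks it and is known as the form that binds IGF2 with higher affinity.
Igf1-203 exon: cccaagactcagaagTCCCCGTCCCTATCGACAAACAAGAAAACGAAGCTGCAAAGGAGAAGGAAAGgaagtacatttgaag
Insr-203 exon: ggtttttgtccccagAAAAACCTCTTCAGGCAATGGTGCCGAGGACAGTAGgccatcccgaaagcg

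H19 is the host transcript of the microRNA hairpin Mir675. Igf2 is the host gene of Mir483, whose hairpin (chr7:142654924-142654996) lies between the annotated Igf2 exons and so in none of the spliced transcripts. The mature sequences from RefSeq are given with the seed, bases 2 to 8, in capitals. All 4 seeds differ.
mmu-miR-675-5p: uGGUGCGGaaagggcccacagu
mmu-miR-675-3p: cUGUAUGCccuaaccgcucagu
mmu-miR-483-5p: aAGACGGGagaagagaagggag
mmu-miR-483-3p: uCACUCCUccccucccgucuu

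The libraries held 36404376 expected counts in replicate 1 and 34569708 in replicate 2, and 12656 annotated genes (22.8%) reached a level of 1 TPM, a unit that scales reads by transcript length and library, in both. Each table of the first quantification, whose columns are those RSEM writes, was set beside a second quantification with the columns of kallisto. The cardiomyocyte markers summed to 27628 TPM in replicate 1 and 29097 in replicate 2, and 5 of 5 stood at 1 TPM or more. Markers of fibroblasts (942 and 908 TPM), endothelium (258 and 252), smooth muscle and pericytes (369 and 363) and macrophages (35.6 and 32.8) were all at 1 TPM or more in both libraries. None of the 5 liver markers reached 1 TPM (0.81 and 1.33 summed). Lung epithelial markers summed to 150 TPM in replicate 1 and 10.1 in replicate 2; 2 of 5 reached 1 TPM in both, led by Scgb1a1 at 97.6 and 5.96 TPM. Fat markers, 4 of 4 at 1 TPM or more, summed to 83.3 and 108.8 TPM. Skeletal muscle markers summed to 1771 and 1731 TPM, with 2 of 5 at 1 TPM or more in both libraries. These were Ckm (1651 and 1602 TPM) and Acta1 (119 and 127 TPM). Mylpf had 0.45 and 1.33 TPM, Tnnt3 0.52 and 1 TPM, and Myh4 0 and 0.11 TPM. No marker was at 0 counts in both libraries.

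All 10 genes were measured well above the detection floor: each had over 50 counts and at least 1 TPM in both libraries. Igf2 was the highest of the 10, followed by H19, Igfbp5, Igf2r, Insr, Irs1, Igfbp3, Igf1, Igf1r and Irs2, and the order was the same in the second quantification. Over transcripts of at least 1000 bases alone the mean of Igf2 was 69.4 TPM and that of H19 73.2 TPM, and which of the pair stood higher differed between the libraries. The libraries' ranges overlapped between H19 and Igfbp5, between Irs1 and Igfbp3, and between Igfbp3 and Igf1, so those neighbours did not differ beyond their spread. Each remaining pair of neighbours had separate ranges. In bulk tissue fewer cells of a type and less RNA per cell cannot be told apart.

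**Figure D1:**
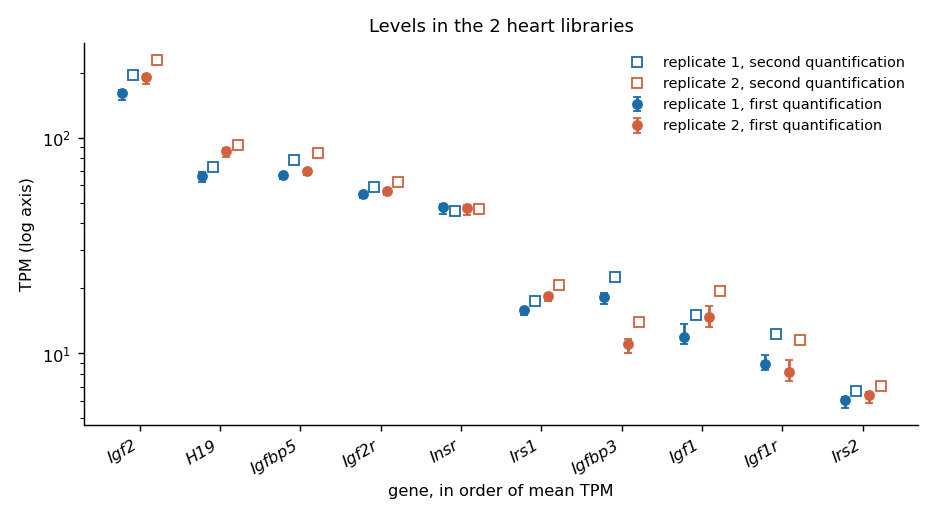
Level of each gene in TPM (log axis) in replicates 1 and 2, filled circles for the first quantification with the deposited interval and open squares for the second. Igf2 stood highest at 161 and 191 TPM and Irs2 lowest at 6.09 and 6.40 TPM. In the second quantification 9 of the 10 genes were higher. The median ratio of second to first TPM was 1.15 over the 10 genes, against 1.19 over all genes at 1 TPM or more in both libraries.

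Of the ligands, Igf2 dominated. Igf2 (ENSMUSG00000048583.16, chr7:142650766-142666816, minus strand), the fetal growth factor of the system, had 160.8 TPM in replicate 1 and 191.1 TPM in replicate 2, from 7913 and 8657 counts. Its mean of 176 ± 21.4 TPM (SD, n = 2) placed it at rank 411 of all annotated genes, above 96.8% of the genes at 1 TPM or more in both libraries. Replicate 2 was the higher library, and the deposited 95% intervals, 149 to 166 TPM and 178 to 195 TPM, did not overlap.

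Igf1 (ENSMUSG00000020053.18, chr10:87858265-87937042, plus strand), the ligand that growth hormone induces, had 11.9 TPM in replicate 1 and 14.8 TPM in replicate 2, from 1713 and 1907 counts. The mean was 13.3 ± 2.04 TPM (SD, n = 2), above 60.6% of detected genes. Replicate 2 was again higher, but the intervals overlapped (11.1 to 13.8 and 13.3 to 16.6 TPM). The Igf2 level exceeded that of Igf1 in both libraries, 13.5-fold in replicate 1 and 13.0-fold in replicate 2, a log2 ratio of 3.73 ± 0.05 (SD, n = 2). Without any correction for length, the counts gave a ratio of 4.58-fold, so the size of this gap depended on the transcript lengths assigned to both genes.

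H19 (ENSMUSG00000000031.16, chr7:142575529-142578143, minus strand), a noncoding RNA of fetal and muscle tissues, had 66.6 TPM in replicate 1 and 86.4 TPM in replicate 2, from 3689 and 4486 counts. Its mean was 76.5 ± 14.0 TPM (SD, n = 2), above 93.0% of detected genes. Like Igf2 it was higher in replicate 2, and its intervals (62.6 to 69.3 and 81.0 to 89.2 TPM) did not overlap. Igf2 stood 2.41-fold above H19 in replicate 1 and 2.21-fold in replicate 2, a log2 ratio of 1.21 ± 0.09 (SD, n = 2). Over transcripts of at least 1000 bases that ratio was -0.07.

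The receptors ran from Igf2r down to Igf1r. Igf2r (ENSMUSG00000023830.14, chr17:12682406-12769664, minus strand), the mannose 6-phosphate receptor that clears IGF2, had 54.7 TPM in replicate 1 and 56.3 TPM in replicate 2, a mean of 55.5 ± 1.13 (SD, n = 2) from 13334 and 13302 counts, the most counts of the 10 genes. Insr (ENSMUSG00000005534.10, chr8:3122061-3279617, minus strand), the insulin receptor, had 47.7 TPM in replicate 1 and 47.0 TPM in replicate 2, a mean of 47.4 ± 0.495 (SD, n = 2). Igf1r (ENSMUSG00000005533.10, chr7:67952827-68233668, plus strand), the signalling receptor of both ligands, had 8.90 TPM in replicate 1 and 8.18 TPM in replicate 2, a mean of 8.54 ± 0.509 (SD, n = 2).

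All 3 receptors had overlapping intervals between the libraries. The Igf1r level was 0.180 of the Insr level, a log2 ratio of -2.47 ± 0.07 (SD, n = 2), and the second quantification gave -1.96. From counts without length correction it was -1.73. Igf2r stood 6.15-fold above Igf1r in replicate 1 and 6.89-fold in replicate 2, a log2 ratio of 2.70 ± 0.12 (SD, n = 2). The RNA of the clearance receptor and that of the insulin receptor were therefore each several times as abundant per length as Igf1r RNA in both libraries. Part of the Insr level lay in noncoding transcripts. The leading coding transcript Insr-201 alone had 26.55 and 26.86 TPM in replicates 1 and 2, beside 7.78 and 6.55 TPM for Igf1r-201.

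Of the adaptors, Irs1 (ENSMUSG00000055980.2, chr1:82233101-82291416, minus strand), which docks phosphoinositide 3-kinase to the activated receptors, had 15.9 TPM in replicate 1 and 18.4 TPM in replicate 2. Its mean was 17.2 ± 1.75 TPM (SD, n = 2), with the higher level in replicate 2 and intervals of 15.1 to 16.0 and 17.4 to 18.5 TPM that did not overlap. Irs2 (ENSMUSG00000038894.7, chr8:10984681-11008458, minus strand), the second adaptor of the same kind, had 6.09 TPM in replicate 1 and 6.40 TPM in replicate 2, with overlapping intervals. Irs1 stood 2.61-fold above Irs2 in replicate 1 and 2.87-fold in replicate 2, a log2 ratio of 1.45 ± 0.10 (SD, n = 2).

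Of the binding proteins, Igfbp5 (ENSMUSG00000026185.8, chr1:72857932-72874884, minus strand), a matrix-bound carrier of both ligands, had 67.3 TPM in replicate 1 and 69.9 TPM in replicate 2, a mean of 68.6 ± 1.80 (SD, n = 2). The level was close in the 2 libraries and the intervals overlapped; in each library the deposited TPM lay just above its own interval (64.6 to 67.0 and 67.0 to 69.5). Igfbp3 (ENSMUSG00000020427.11, chr11:7206086-7213923, minus strand), the main carrier in blood, had 18.3 TPM in replicate 1 and 11.1 TPM in replicate 2, from 1186 and 696 counts. Its mean was 14.7 ± 5.11 TPM (SD, n = 2), the widest relative spread of the 10 genes, with intervals of 16.9 to 18.97 and 10.1 to 11.7 TPM. Igfbp5 stood 3.67-fold above Igfbp3 in replicate 1 and 6.29-fold in replicate 2, a log2 ratio of 2.27 ± 0.55 (SD, n = 2). Counts without length correction gave 12.3-fold in place of 4.81-fold over both libraries.

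The difference between the libraries was set against the background of all genes with a mean of at least 50 expected counts. By a rule of size (at least 2-fold in TPM + 1 after the median difference was removed, with intervals that do not overlap), 45 of 12876 genes (0.349%) differed, 39 higher in replicate 1 (0.303%) and 6 higher in replicate 2 (0.0466%). None of the 10 genes did. By the intervals alone, 1561 of 12876 genes (12.1%) did not overlap, and 4 of the 10 did not: Igfbp3 higher in replicate 1 (background 5.62%), and Igf2, H19 and Irs1 higher in replicate 2 (background 6.5%). The median log2 difference of the 10 genes, replicate 1 minus replicate 2, was -0.03, against 0.0016 over all genes tested, and the median absolute difference 0.15 against 0.11.

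Igfbp3 differed most of the 10, by 0.70 in log2(TPM + 1), replicate 1 minus replicate 2. Only 1.27% of the genes tested differed by more, and the ratio of counts scaled to library size was 1.62 (exact 95% counting interval 1.47 to 1.78). H19 followed at -0.34, a size that 9.71% of the genes tested exceeded, with a ratio of 0.781 (0.747 to 0.815). The differences of Igf1 (-0.27), Igf2 (-0.22) and Irs1 (-0.17) were exceeded by 16.7%, 22.9% and 33.1% of genes. An exact counting interval that left out a ratio of 1 was not particular to Igfbp3 and H19. Of the 10 genes, only Insr (0.943 to 1.005) and Irs2 (0.859 to 1.020) had intervals that held it.

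The remaining genes lay closer to 0: Igf1r at 0.13, Insr at 0.05, Irs2 at -0.04, Igfbp5 at -0.03 and Igf2r at -0.01, the last exceeded by 92.4% of genes. The exact intervals of the count ratios cover counting error only, and they treat reads as independent molecules, which reads are not. The summed TPM of the lung epithelial markers was higher in replicate 1, as Igfbp3 was. So were the sums of the fibroblast, endothelial, smooth muscle and pericyte, macrophage and skeletal muscle markers, by smaller margins. The skeletal muscle sum was higher there through Ckm alone (1651 and 1602 TPM in replicates 1 and 2). The other skeletal muscle markers, Acta1, Myh4, Mylpf and Tnnt3, were each higher in replicate 2. The sums of the fat, cardiomyocyte and liver markers were higher in replicate 2, as Igf2, H19 and Irs1 were. Single markers also ran the other way, such as the lung marker Sftpc with 0 and 16 counts and the cardiomyocyte marker Ryr2 with 419.8 and 400.2 TPM in replicates 1 and 2. The part of these markers in the differences was not tested.

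**Figure D2:**
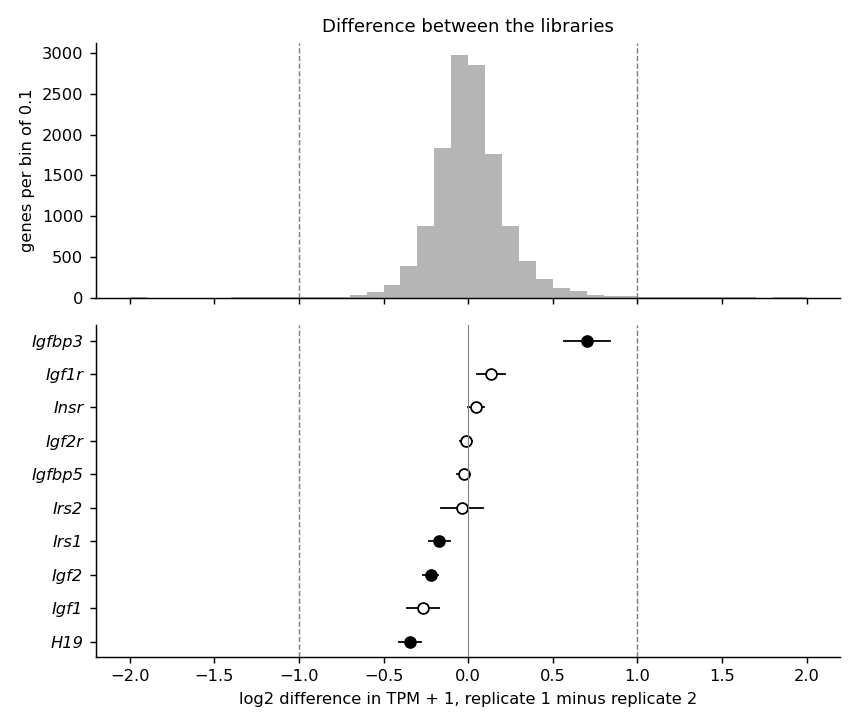
Above, number of genes per bin of 0.1 in the difference of log2(TPM + 1), replicate 1 minus replicate 2, over the genes tested, the outermost bins also holding genes beyond 2; below, the same difference for each of the 10 genes, with the exact 95% counting interval of its count ratio as a line, centred on the dot, and filled dots where the deposited intervals did not overlap. Igfbp3 at 0.70 and H19 at -0.34 lay farthest from 0, and none reached the dashed lines at -1 and 1.

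The transcripts of Igf2 divided differently by level and by reads. GENCODE M21 annotates 9, of which 4 (Igf2-201, Igf2-202, Igf2-204 and Igf2-205) are 1000 bases or longer and hold the coding exons with long 3′ ends. The 5 shorter ones took 58.5% of the gene's TPM in replicate 1 and 62.3% in replicate 2, but 20.1% and 22.2% of its expected counts. TPM divides by length, so a short transcript gains a large share of TPM from few reads. In the second quantification the short transcripts took 55.3% and 55.6% of TPM from 9.15% and 9.32% of the counts.

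The short transcript that led was not the same in the 2 quantifications. Igf2-208, a 958-base processed transcript over the 3′ end, led in the first with 25.5 ± 0.339% of TPM (SD, n = 2) and held 13.5% in the second. Igf2-209, a 462-base coding fragment, led in the second with 41.3% and had 0% and 0.11% in the first. Igf2-203 and Igf2-207, of 650 and 376 bases, held 16.2% and 18.4% of TPM in the first quantification and 0.409% and 0% in the second. Igf2 was the exception here, since the other 7 genes with more than 1 transcript had the same leader in both.

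Restricted to transcripts of at least 1000 bases, a choice made after the data were seen, Igf2 had 66.8 and 72.1 TPM in replicates 1 and 2, which drops the reads given to the short transcripts without reassigning them. On that scale the log2 ratio of Igf2 to H19 was -0.07, with 0.06 in replicate 1 and -0.19 in replicate 2, in place of 1.21, so whether Igf2 stood above H19 depended on the short transcripts. The ratio of Igf2 to Igf1 on that scale remained above 0 at 2.63.

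Grouped by first exon, the innermost start held the largest share of Igf2 counts. The transcripts of start 4 (Igf2-201 and Igf2-202) took 46.2% and 42.2% of the gene's counts in replicates 1 and 2 in the first quantification. That was a mean of 44.2 ± 2.87% (SD, n = 2), beside 44.6 ± 1.72% in the second. Transcripts of start 2 (Igf2-204 and Igf2-206) took 18.6 ± 0.437% in the first and 32.9 ± 1.20% in the second. The transcript of start 3 (Igf2-205) took 16.2 ± 1.80% and 13.3 ± 0.392%.

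Start 1, the outermost, had only the 650-base Igf2-203, with 5.24 ± 0.644% of counts (SD, n = 2) in the first quantification and 0.0818 ± 0.115% in the second. The rest went to transcripts with first exons of their own: Igf2-208 took 12.8% of counts in the first quantification and 5.32% in the second, Igf2-207 took 2.98% and 0%, and Igf2-209 took 0.0125% and 3.78%. The order with start 4 first held in each library of both quantifications. The shares of starts 1 and 2 differed between the quantifications by more than the libraries differed within either. Reads in the shared coding and 3′ exons do not show their start, so these shares rest on how each program divided them.

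**Figure D3:**
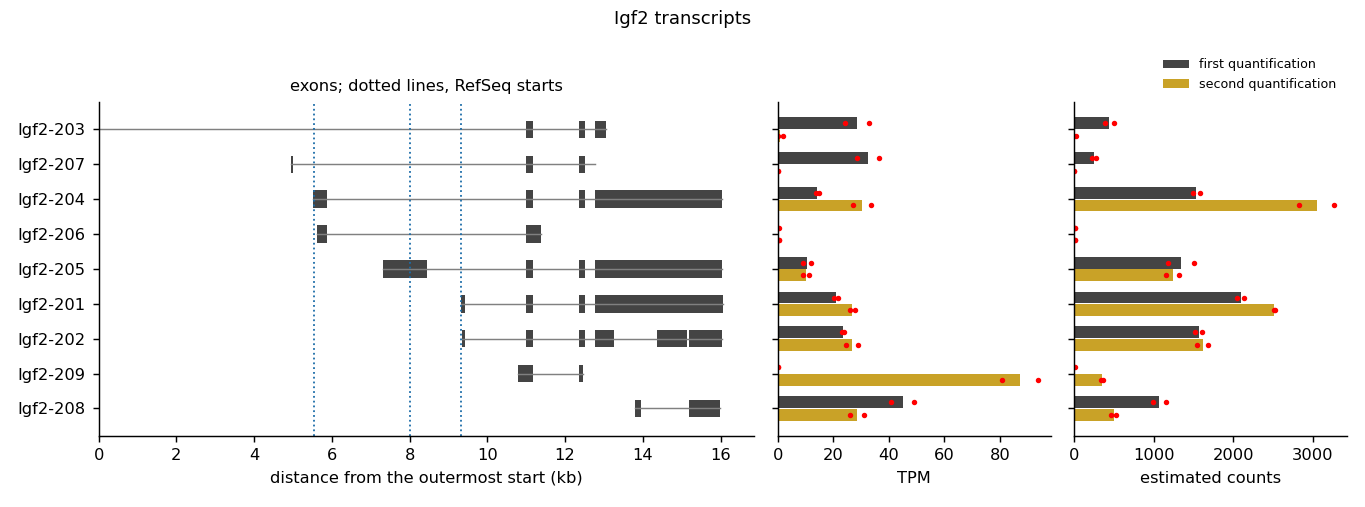
Left, exons of the 9 Igf2 transcripts by distance in kb from the outermost start, with dotted lines at the other RefSeq starts; right, TPM and estimated counts of each transcript, bars for the mean of the 2 libraries in the first (dark) and second (gold) quantification and red dots for the libraries. Short transcripts such as Igf2-208 and Igf2-209 led by TPM, while Igf2-201, Igf2-202, Igf2-204 and Igf2-205 held most counts.

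For Igf1, the 7052-base Igf1-202, which lacks the 52-base exon, led with 67.7% and 62.9% of TPM in replicates 1 and 2, a mean of 65.3 ± 3.40% (SD, n = 2), and 60.2% in the second quantification. Igf1-203, which holds the exon, had 21.6% and 14.96% of TPM in the first quantification and 0% in the second, where Igf1-205, a 798-base transcript without it, had 29.0% and 34.6%. The 651-base Igf1-206, which also holds the exon, differed between the libraries in the first quantification, with 0% in replicate 1 and 13.75% in replicate 2. The transcripts with that exon or a longer form starting at the same base had 7.22% and 7.11% of the gene's counts in the first quantification and 0.895% and 1.18% in the second. Transcripts that begin at the first of the gene's leader exons took 98.3% and 96.8% of counts, and 95.9% and 94.9% in the second quantification. By counts, most Igf1 reads were thus given to transcripts with the first leader exon and without the 52-base exon in both quantifications. Reads in shared exons do not show their leader, so these shares too rest on how each program divided them.

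For Insr, the 9355-base coding transcript Insr-201 led with 55.6% and 57.1% of TPM in the first quantification, a mean of 56.4 ± 1.04% (SD, n = 2), and 89.2% and 89.3% of counts. Insr-201 lacks the 36-base exon, and the annotation holds it as a spliced exon only in Insr-203, a 672-base fragment. Insr-203 had 14.2% and 11.4% of TPM but 1.40% and 1.11% of counts, and 18.5% and 16.4% of TPM in the second quantification. Since no full-length transcript with the exon is annotated, reads of isoform B outside that fragment have no transcript of their own, and the ratio of isoforms A and B was not derived. Insr-202, a retained-intron transcript at the 5′ end, had 27.3% and 28.3% of TPM, and 10.3% and 11.5% in the second quantification.

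For H19, the 2286-base H19-202 led with 79.8% and 75.0% of TPM, a mean of 77.4 ± 3.43% (SD, n = 2), and 84.7% in the second quantification. H19-207, a 1178-base transcript without the Mir675 hairpin, had 10.54% and 15.84% of TPM in the first quantification and 1.12% and 0.796% in the second. The Mir675 hairpin (84 bases, chr7:142577064-142577147) lies at bases 997 to 1080 of H19-202 and is also held by H19-205 and H19-206. Transcripts with the hairpin took 91.6% and 88.9% of the counts of H19 in the first quantification and 99.3% and 99.6% in the second. The separate Mir675 and Mir483 genes were listed at 0 with an effective length of 0 in the first quantification, so no level of either microRNA can be read from these libraries.

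For Igf1r, the 11409-base coding transcript Igf1r-201 took 97.4% and 96.1% of counts and 83.8 ± 5.19% of TPM (SD, n = 2). In the second quantification it had 66.2% of TPM, and Igf1r-206, a 733-base retained-intron transcript, had 21.7% and 27.1% from 30.4 and 33.5 estimated counts. The remaining genes were simpler: Igf2r-201, Igfbp3-201 and Igfbp5-201 held 98.7%, 97.7% and 99.9% of their genes' TPM, and Irs1 and Irs2 have 1 annotated transcript each.

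**Figure D4:**
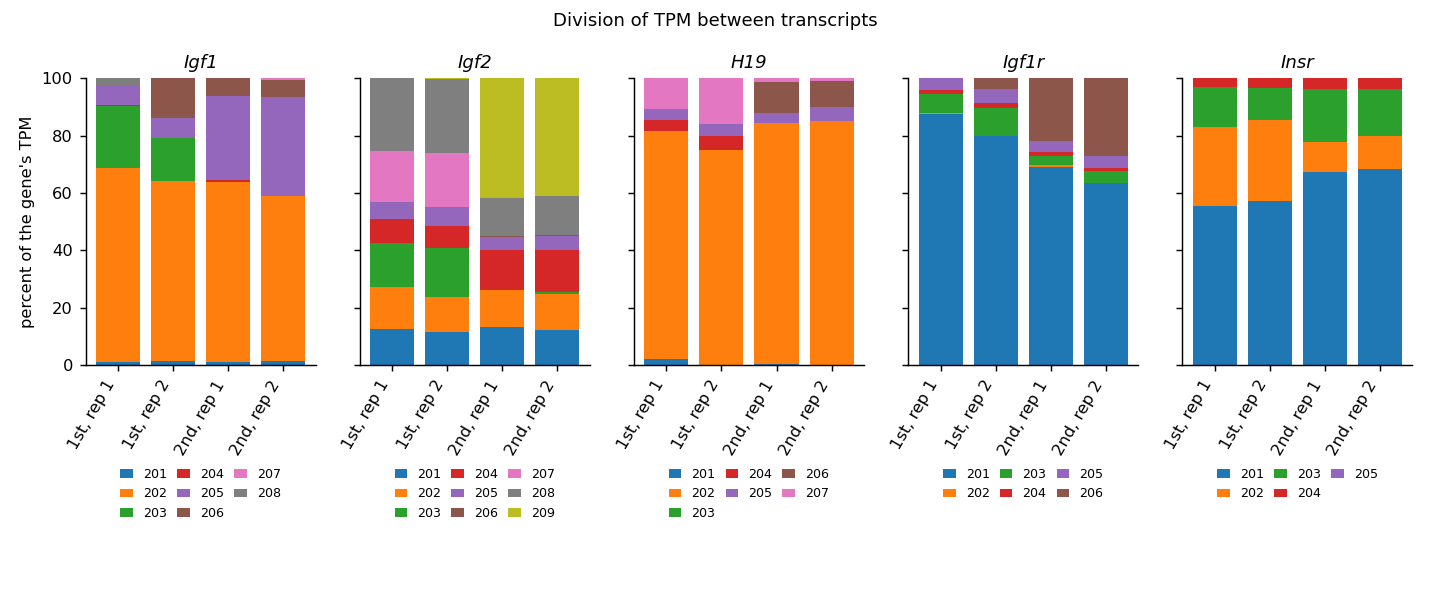
Percent of each gene's TPM in its transcripts (numbered as in GENCODE M21) for Igf1, Igf2, H19, Igf1r and Insr, in replicates 1 and 2 of the first and second quantification. The leading transcript of each gene was the same in both libraries of a quantification, while that of Igf2 changed between quantifications, from Igf2-208 at 25.5% to Igf2-209 at 41.3%.

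Other annotated genes overlap these loci, and no source used here states whether counting used strand. Of 12 overlapping genes, 9 lie on the other strand and 8 had 0 counts in both libraries. Airn, the paternally transcribed antisense RNA known for silencing Igf2r in cis, had 362 and 350 counts (13.2 and 13.5 TPM), against 13334 and 13302 for Igf2r. Igf2os, antisense to Igf2, had 30 and 21 counts. Gm49394, a coding gene annotated over Igf2 on the same strand, had 0 counts in both libraries, although it shares sequence range with Igf2, so the division of reads between them is uncertain.

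The other genes of the pathway were taken from a list of 50 in 7 groups by role. Of them, 34 (68.0%) were at 1 TPM or more in both libraries, beside 22.8% of all annotated genes, and none of the 37 tested differed by the rule of size. By intervals alone, 5 of the 37 were higher in replicate 1 (Pappa, Stc1, Stc2, Pik3r1 and Foxo3), where the background was 5.62%, and 4 in replicate 2 (Htra1, Grb14, Akt1 and Eif4ebp1), where it was 6.5%. Insulin itself was not detected: Ins1 had 0 counts in both libraries, where a count of 0 allows up to 3, and Ins2 had 0 and 1.

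Of the other binding proteins, 4 of 6 reached 1 TPM. Igfbp7, a low-affinity family member, had 180.6 ± 3.46 TPM (SD, n = 2), a mean close to that of Igf2, and Igfbp4 had 57.2 ± 4.32 TPM, below Igfbp5. Igfbp6, which prefers IGF2, had 21.5 ± 0.304 TPM, and Igfals, the acid-labile subunit that joins IGFBP3 in blood, 3.28 ± 0.311 TPM. Igfbp1 had 0 counts in both libraries. Igfbp7, not one of the 10 genes, was thus the most abundant binding protein of the 8 measured.

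Of the proteases and their inhibitors, 2 of 5 reached 1 TPM in both libraries. Htra1, a protease that cleaves binding proteins, had 69.1 ± 8.21 TPM (SD, n = 2). Stc2, an inhibitor of the protease PAPPA, had 9.55 ± 1.48 TPM, Stc1 1.35 TPM in replicate 1 and 0.74 TPM in replicate 2, and Pappa 0.37 and 0.21 TPM. Of the 2 other receptors, Ghr, the growth hormone receptor, had 59.6 ± 1.10 TPM, near the level of Igf2r, and the insulin receptor-related Insrr 0.10 and 0.09 TPM.

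Of the other adaptors, 5 of 7 reached 1 TPM. The inhibitory adaptors Grb14 and Grb10 had 68.3 ± 8.76 and 58.2 ± 0.580 TPM (SD, n = 2), each above Irs1 in both libraries, while Grb2 and Shc1, which link receptors to the RAS pathway, had 48.8 ± 2.15 and 19.6 ± 0.382 TPM. All 17 genes of the kinase cascade reached 1 TPM. Akt1 had 97.2 ± 8.68 and Akt2 70.3 ± 0.665 TPM, and Eif4ebp1, a translation inhibitor that the cascade shuts off, 40.4 ± 5.11 TPM. Pik3r1, the regulatory subunit that IRS proteins bind, had 44.6 TPM in replicate 1 and 25.6 TPM in replicate 2, a difference that 0.916% of the genes tested exceeded.

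Of the genes that lie at the imprinted loci or act on them, 5 of 11 reached 1 TPM. Ctcf, the insulator protein that binds between Igf2 and H19, had 18.1 ± 0.778 TPM (SD, n = 2), and Plagl1, an imprinted transcription factor, 9.85 ± 0.127 TPM. Igf2bp2, an RNA-binding protein named for Igf2 mRNA, had 4.56 TPM in replicate 1 and 2.80 TPM in replicate 2, with overlapping intervals. Nctc1, a noncoding RNA next to H19, had 0 counts in both libraries.

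**Figure D5:**
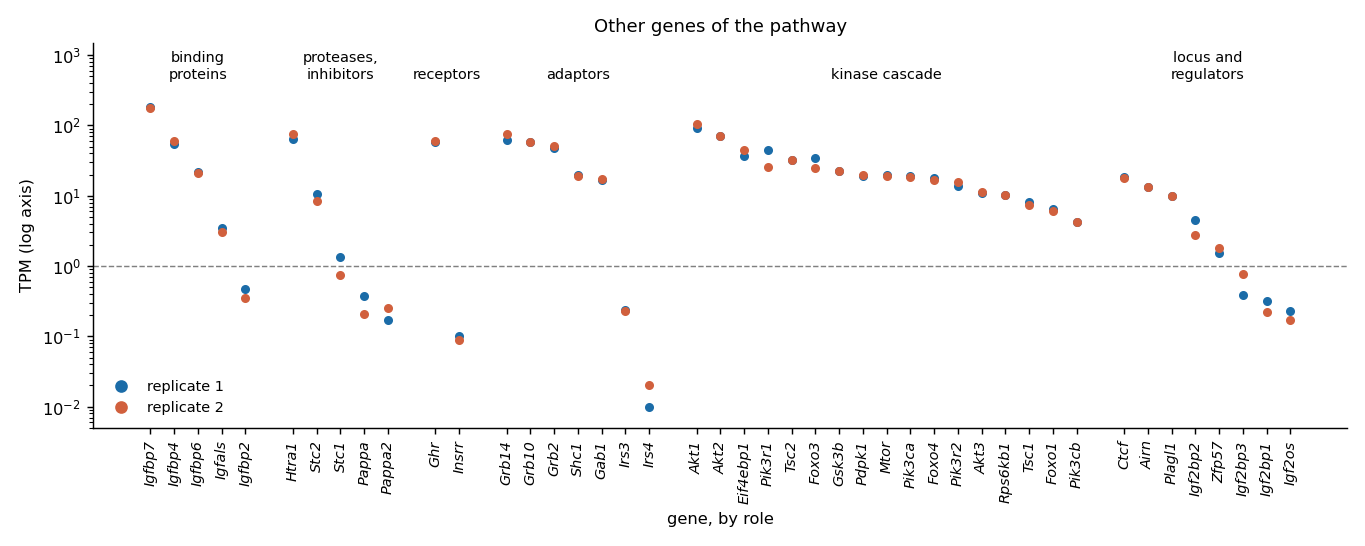
TPM (log axis) of the other pathway genes in replicate 1 (blue) and replicate 2 (red), grouped by role, with a dashed line at 1 TPM; genes at 0 in either library are not drawn. Igfbp7 at 180.6 TPM was the highest, and the genes of the kinase cascade all lay above the line. Pik3r1 was higher in replicate 1 with intervals that did not overlap, and Igf2bp2 was higher there with intervals that overlapped.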

How the data were processed

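The 2 heart libraries were analysed from processed tables. The readme deposited with them names mm10 and GENCODE M21. Aligner, quantification programs, strand use and the handling of CAST/EiJ reads were not given in the sources used here. In the first quantification, the authors' expected counts per gene and transcript divide reads between features and are not normalized, per the file headers. The deposited TPM values are scaled by effective length (length less 99 bases) to one sum over all rows, with spike-ins. The deposited bounds of the posterior TPM interval serve as a score of how precise each library's estimate is. Transcript rows also carry a deposited percent, the transcript's part of the TPM of its gene. The authors' second quantification gives estimated counts with TPM for transcripts, which were summed here per gene.

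The 10 genes were found by symbol in the transcript names. Only annotated genes entered the background, and spike-ins and rows with numeric identifiers were left out. The total of annotated genes was 36197643 and 34358598 expected counts, and 3 counts, the limit that a count of 0 allows, correspond to 0.0829 and 0.0873 CPM. Differences were taken on log2(TPM + 1), replicate 1 minus replicate 2, less the median over genes at 1 TPM or more (-0.03). The rule of size asked for a log2 difference of at least 1, a mean of at least 50 expected counts and deposited intervals that do not overlap. Count ratios have exact Clopper-Pearson intervals at 95%. For alternative scalings, expected counts were rounded and scaled with edgeR 4.0.16 (TMM) or DESeq2 1.42.0 (size factors) under R 4.3.3, or to the spike-ins. Other alternatives were the second quantification, the posterior mean TPM, counts without length correction, TPM over nuclear protein-coding and long noncoding genes, pseudocounts, filters on counts, and each library alone. The rule of size was tested on simulated data. Tables were handled in Python 3.11.15 (pandas 2.3.3, numpy 2.4.6), intervals came from scipy 1.17.1 and plots from matplotlib 3.10.9. Promoter and microRNA sequences are RefSeq's (GRCm38.p6) and exon sequences are from GENCODE M21 transcripts.

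The 10 genes, the lists and the rules were chosen with earlier results of these data known. The genes named are all 10, genes overlapping them, and from each group of the pathway list up to 4 with the highest mean TPM and those at 0 counts. The pathway list held 1 more gene, which was left out of every count and is not reported here. Foxo3, named for intervals that did not overlap, was added after its values were seen. So were the markers Scgb1a1, Sftpc, Ryr2, Ckm, Acta1, Myh4, Mylpf and Tnnt3 and the transcripts Igf1-206, H19-205 and H19-206. Transcripts named are the leaders and those with at least 10% of a gene's TPM, with all 9 for Igf2.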

Additional observations from a re-analysis of the deposited data

How the results depend on the processing

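With 1 group of 2 libraries, differences between the libraries have no replicate check, and transcript shares depend on how each program divided shared reads. No paired analysis was possible because there is only 1 group. The number of genes that met the rule of size moved from 45 to 89 with a pseudocount of 0.1, and none of the 10 genes was among them under any of the 7 alternatives.

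In log2, Igf2/Igf1 was 3.73 and became 3.61 in the second quantification, 3.66 with the posterior mean TPM, 2.20 from counts without length correction and 2.63 over transcripts of at least 1000 bases, an alternative added after the data were seen. Igf2/H19 (1.21) became 1.36 in the second quantification and 1.02 from counts, and turned to -0.067 over transcripts of at least 1000 bases, where the short Igf2 transcripts are left out. Igf1r/Insr (-2.47) became -1.96, -1.73 and -2.30 in the same order. Igf2r/Igf1r (2.70) became 2.35 in the second quantification and 2.53 from counts. From counts Irs1/Irs2 became 1.99 and Igfbp5/Igfbp3 3.62. Each library alone gave 3.70 to 3.76 for Igf2/Igf1, 1.14 to 1.27 for Igf2/H19, -2.52 to -2.42 for Igf1r/Insr, 2.62 to 2.78 for Igf2r/Igf1r, 1.39 to 1.52 for Irs1/Irs2 and 1.88 to 2.65 for Igfbp5/Igfbp3. The cause of these shifts was not tested beyond what each alternative leaves out.

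Scaling to the spike-ins moved the median difference of detected genes by 0.04 and turned the sign of the differences of Igf2r (0.04), Irs2 (0.0087) and Igfbp5 (0.03); the other settings turned none. The difference of Igfbp3 stayed between 0.69 and 0.75.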
